A study of Arabidopsis thaliana with 69 samples.

Results

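The comparison set 3 arrays of Arabidopsis thaliana cultures at 9 h of induction against 3 arrays at 6 h of induction, all of the VND7 line and all labelled DEX. These 6 arrays were taken by line, treatment and time label, out of 69 in the series and 51 of this line. Both groups carried VND7-VP16-GR in the Col-0 background, in which the transcription factor VND7 is joined to VP16, a strong viral activation domain, and to the part of the glucocorticoid receptor (GR) that binds steroids; the 35S promoter, which is active in most plant cells, drives it. The cultures were grown for 6 days in liquid medium in the dark and then received 10 µM dexamethasone (DEX), the steroid that lets a GR fusion enter the nucleus. Cultures of the same line given DMSO, the solvent, were the uninduced background, with 3 arrays at each of both times. A line carrying the empty vector, VP16-GR with no VND7, was measured at 9 h too. The labels give hypocotyl as the tissue, while the culture protocol describes whole seedlings filtered from a flask. They name the 3 arrays of a group biological replicates without saying more, so that the p-values measure the spread between these samples. The labels do not say whether the line descends from 1 transformant. The question was which genes went on changing between both times, once induction had begun.

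VND7 is a NAC-family transcription factor that starts the formation of xylem vessel elements, the water-conducting cells of vascular plants. A vessel element first lays down a patterned secondary wall of cellulose, the hemicellulose xylan and lignin, and then digests its own contents, so that a hollow tube remains. NAC factors of this group act on a second layer of regulators and also directly on genes of wall building and of cell death. When such a factor is expressed outside the xylem, cells of other kinds can turn into vessel-like cells.

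Signals are log2 values per probe set, the group of short probes that reports 1 transcript. The lowest value the normalization gave was 2.14, and values there have no order among themselves. Differences are written as the 9 h mean minus the 6 h mean on the log2 scale, with the standard error (SE) of the fit. A probe set was called when limma gave a Benjamini-Hochberg adjusted p under 0.05 over all 22746 probe sets and the difference was at least 1 in size, in either direction.

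The 6 arrays fell into their 2 labelled groups. The DEX 6 h arrays correlated with each other at 0.991 to 0.995 and with the DEX 9 h arrays at 0.967 to 0.985, while the DEX 9 h arrays correlated among themselves at 0.986 to 0.993 (Pearson, over all probe sets, which are not independent replicates). Array medians lay between 4.89 and 4.99, and 27.9% to 29.4% of an array's values were less than 0.3 above the lowest value. The actin control probe sets, whose 3′ minus 5′ difference grows as RNA breaks down, gave 4.46 to 4.60 at 6 h and 4.30 to 4.51 at 9 h, ranges that overlap. The induced arrays at the neighbouring times did not follow their labels in a steady course. DEX 3 h replicates 1 and 3 and DEX 12 h replicate 2 correlated better with the DEX 9 h arrays (0.983 to 0.992) than with the DEX 6 h arrays (0.967 to 0.986). For DEX 3 h replicate 3 these ranges overlapped, 0.983 to 0.992 and 0.982 to 0.986. DEX 3 h replicate 2 and DEX 12 h replicates 1 and 3 correlated better with the DEX 6 h arrays (0.969 to 0.980) than with the DEX 9 h arrays (0.933 to 0.953). Each of them was nearest to another of them (0.995 to 0.996) and not to a DEX 6 h array. In the uninduced background, DMSO 6 h replicate 2 stood toward the induced arrays: it read 8.71 for the xylan gene IRX15, against 2.17 in each of the other DMSO 6 h arrays. A difference between the arrays labelled 6 h and 9 h is therefore described here as a difference between these labels, and how far it is one of elapsed time cannot be told apart.

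**Figure D1:**
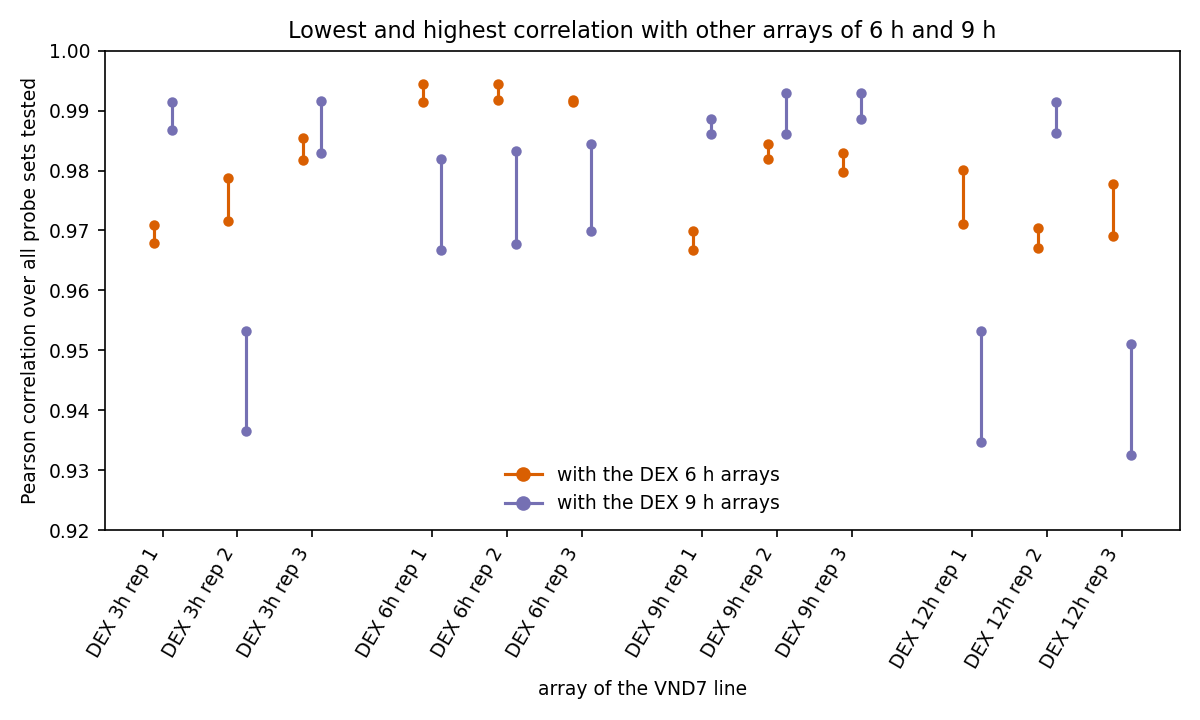
Lowest and highest Pearson correlation (vertical axis, over 22746 probe sets) of each DEX array of the VND7 line at 3, 6, 9 and 12 h (horizontal axis) with the other arrays labelled DEX 6 h (orange) and DEX 9 h (purple). The 3 arrays of 6 h and the 3 of 9 h each lie closer to their own label. At 3 h and at 12 h some arrays correlate better with the 9 h arrays and others with the 6 h arrays. The latter correlate less with the 6 h arrays than these do among themselves.

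Between 6 h and 9 h of induction 370 probe sets rose (1.63% of those tested) and 328 fell (1.44%), together 698 (3.07%). The median difference was 1.43 among the rises and -1.48 among the falls, against 0 over all probe sets, and 75 rises and 80 falls were of at least 2. With no test, 1562 probe sets (6.87%) differed by at least 1. Adjusted p-values were close to the threshold, 0.00709 to 0.0499 among the rises and 0.00229 to 0.0498 among the falls (limma, Benjamini-Hochberg). In all 698 called probe sets the 3 arrays of 9 h lay on one side of the 3 arrays of 6 h, which was also so in 29.6% of all probe sets. Of the called probe sets 359 name 1 gene, 15 name several genes and 324 are unnamed here. Counted over 13355 named genes with 1 probe set each, 202 genes rose (1.51%) and 157 fell (1.18%). The calls rest on few arrays: leaving out 1 array gave 18 calls without DEX 6 h replicate 2, 22 without DEX 9 h replicate 3, 31 without DEX 6 h replicate 1, 180 without DEX 9 h replicate 2, 391 without DEX 6 h replicate 3 and 542 without DEX 9 h replicate 1. The size stayed at 1 or more in all of these 6 fits for 579 of the 698 probe sets, while 10 were called in every one of the fits and 181 in none.

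**Figure D2:**
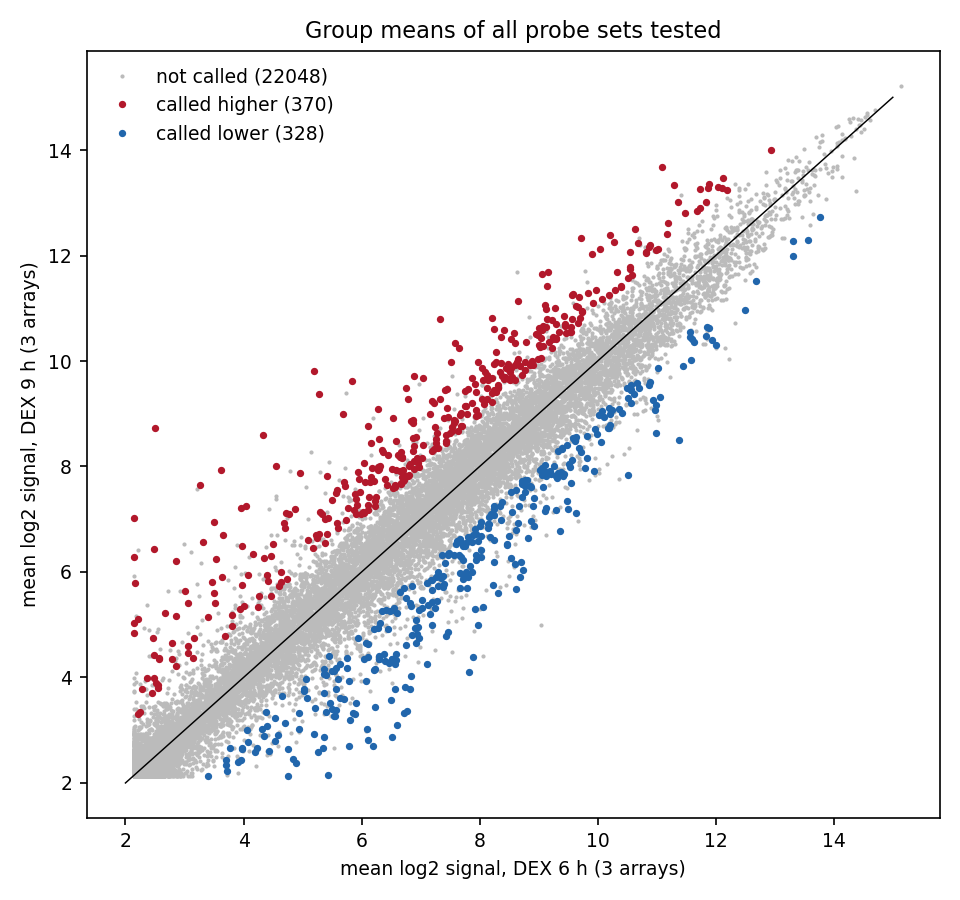
Mean log2 signal of the 3 DEX 6 h arrays (horizontal axis) and of the 3 DEX 9 h arrays (vertical axis) for 22746 probe sets, with the line of equal signal. The 370 called rises (red) and 328 called falls (blue) are spread over the whole signal range, and a band of probe sets starts at the lowest value of 2.14.

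Of 4 measured genes of xylan synthesis 3 rose, against 1.51% of all named genes. Other genes sought for this list, such as PARVUS and the GUX genes, were not found under their gene names. GUT2 and IRX15, among the 3, were set as markers with earlier results of these data known. The count therefore describes these 4 genes and not the whole pathway. Xylan is the main hemicellulose of the secondary wall, and its backbone and side chains are made in the Golgi. IRX15, which is needed for the normal length of xylan chains, read 8.87, 8.96 and 9.48 in the DEX 6 h arrays and 11.15, 10.83 and 11.21 in the DEX 9 h arrays. The groups did not overlap, and the difference was 1.96 ± 0.21 (SE, n = 3 and 3, limma adjusted p = 0.0226), a 3.89-fold rise. Its close relative IRX15-L read 11.18, 11.23 and 11.67 at 6 h and 13.00, 13.03 and 12.99 at 9 h, which is a difference of 1.64 ± 0.15 (adjusted p = 0.021).

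GUT2 encodes a glycosyltransferase of the xylan backbone. It read 11.84, 11.95 and 12.52 at 6 h and 13.24, 13.21 and 13.37 at 9 h. All arrays of 9 h were above all of 6 h, by 1.17 ± 0.20 in the means (adjusted p = 0.0424). GUT1, which encodes a related enzyme, read 9.59, 9.46 and 9.63 at 6 h and 9.45, 9.94 and 9.98 at 9 h. Its groups overlapped, and the difference of 0.23 did not pass the test (adjusted p = 0.516). No gene of this list fell, and its median difference was 1.40 against 0 over all named genes. At both times GUT2 and IRX15, the markers of vessel-forming cells, were far above the uninduced cultures of 9 h, which read 6.86 ± 0.13 for GUT2 (SD, n = 3) and 2.17 for IRX15 in each array. Since each array holds RNA of whole cultures, more vessel-forming cells and more of a transcript per cell cannot be told apart. None of the 3 calls held without DEX 9 h replicate 2 or 3 or without DEX 6 h replicate 1 or 2, with adjusted p-values of 0.0516 to 0.149 (limma, Benjamini-Hochberg).

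**Figure D3:**
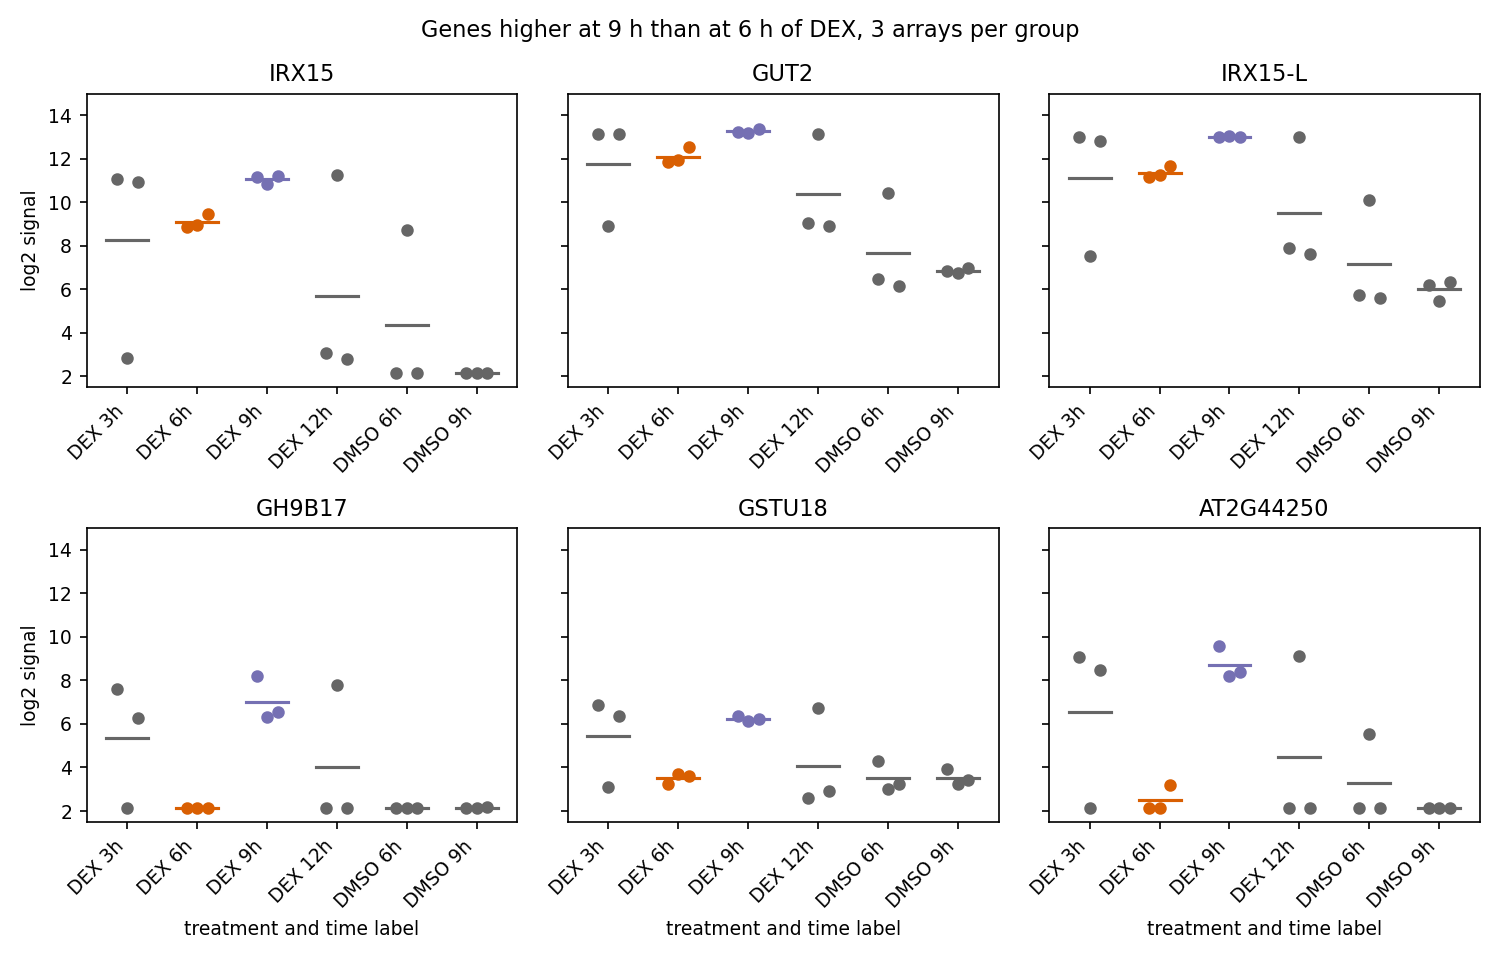
Log2 signal (vertical axis) of 6 genes that rose, in the VND7 line by treatment and time label (horizontal axis), with 1 point per array and a bar for the mean of 3 arrays. In each panel the 3 DEX 9 h arrays (purple) are above the 3 DEX 6 h arrays (orange), while the DEX 3 h and DEX 12 h arrays split between high and low values.

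The 2 largest rises of named genes began at or near the lowest value. AT2G44250 read 2.14, 2.14 and 3.20 at 6 h and 9.58, 8.22 and 8.37 at 9 h, a difference of 6.23 ± 0.52 (adjusted p = 0.0192). GH9B17, of the glycosyl hydrolase family that holds the plant endoglucanases, enzymes that cut glucan chains, read 2.14 in all arrays of 6 h and 8.19, 6.33 and 6.54 at 9 h, a difference of 4.88 ± 0.55 (adjusted p = 0.0233). It was the 1 call among 15 measured genes of its family, whose median difference was 0, while 2.69% of all named genes were called. At 6 h the first gene was at the lowest value in 2 arrays and GH9B17 in all 3, so that both differences are measured from that limit. Among all rises, 10 probe sets had a 6 h mean less than 0.3 above it.

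COR27, a gene known for its response to cold and its part in the circadian clock, read 4.76, 4.49 and 5.61 at 6 h and 8.55, 7.43 and 7.66 at 9 h, a difference of 2.92 ± 0.45 (adjusted p = 0.035). The other 12 of the 15 largest rises carry locus codes only in the tables used here. They were AT1G19230 (4.61), AT2G25460 (4.37), AT5G47000 (4.31), AT4G33720 (3.95), AT3G49070 (3.46), AT1G20030 (3.45), AT4G20770 (3.44), AT1G28080 (3.36), AT2G41445 (3.25), AT1G06020 (3.25), AT1G57670 (3.21) and AT2G19200 (3.05), where each value is the log2 difference. The reference table lists AT2G19200 as a transcribed pseudogene. AT1G28080 read 2.71, 3.13 and 2.71 at 6 h and 6.26, 6.31 and 6.06 at 9 h, a difference of 3.36 ± 0.16 (adjusted p = 0.0105). Of the 30 genes named for the size of their difference, 15 in each direction, it was the 1 whose call held whichever array was left out, and 4 were called in none of these fits. The sizes stayed at 1 or more in all 30.

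Several other genes of the vessel programme, as far as they were measured under a gene name, did not pass the test. Most regulators sought for the secondary wall list, such as MYB46 and MYB83, were not found under their gene names. That list held AT1G66810 only. AT1G66810, a CCCH zinc finger gene that the reference table also lists as AtC3H14, the name of a regulator of secondary walls, read 12.45, 12.52 and 12.73 at 6 h and 12.43, 12.82 and 12.74 at 9 h. Its groups overlapped, with a difference of 0.09 ± 0.14 (adjusted p = 0.788). It stood far above the uninduced cultures at both times, where the mean at 9 h was 2.71 ± 0.07 (SD, n = 3). TBL34, of a family that adds acetyl groups to wall polysaccharides, read 13.15 to 13.23 at 6 h and 13.24 to 13.29 at 9 h, a difference of 0.08 (adjusted p = 0.351).

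KINESIN-13A, a microtubule motor protein known from the patterning of wall pits, read 11.50, 11.64 and 11.62 at 6 h and 11.37, 11.55 and 11.70 at 9 h, a difference of -0.05 (adjusted p = 0.895). None of the 11 measured genes of lignin polymerisation passed the test, and their median difference was 0.07. These are mostly peroxidases, enzymes that couple lignin monomers in the wall, and LAC16 was the only laccase gene found under its name. The peroxidase gene AT5G66390 (PRX72) read 13.08, 12.92 and 12.99 at 6 h and 13.28, 12.88 and 13.04 at 9 h, which overlap (adjusted p = 0.849). The difference of AT5G51890, of the same list, was 0.09 (adjusted p = 0.59). A p that misses the threshold does not show that such genes kept their level.

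Supply of lignin precursors was measured by 5 genes, of which 1 rose, against 1.51% of all named genes. AT5G66120, in the list of the shikimate pathway, which leads to aromatic amino acids, read 9.34, 9.53 and 9.78 at 6 h and 10.54, 10.54 and 10.56 at 9 h. The groups were apart by 1.00 ± 0.12 (adjusted p = 0.0254), just at the minimum size for a call. HCT, an acyltransferase of the monolignol pathway, differed by -0.22 (adjusted p = 0.251), with overlapping groups.

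No gene measured in the cell death list passed both thresholds. The XCP, RNS and BFN1 genes sought for this list were not found under their gene names. Of the 6 measured, 5 had a difference above 0, and the median was 0.47. ALPHA-VPE, a vacuolar processing protease, read 5.30, 5.18 and 5.43 at 6 h and 7.94, 5.76 and 6.16 at 9 h. The groups did not overlap, but DEX 9 h replicate 1 stood apart from the other arrays of its time, and the difference of 1.32 ± 0.63 did not pass the test (adjusted p = 0.298). AT4G18425 read 10.75, 10.71 and 10.94 at 6 h and 12.74, 11.65 and 12.13 at 9 h, a difference of 1.37 ± 0.30 (adjusted p = 0.0629). AT4G04460 had an adjusted p of 0.0401 in limma, but its difference of 0.53 ± 0.09 was under the minimum.

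Of the genes of autophagy, the process by which a cell delivers its own contents to the vacuole, 2 of 11 rose and all 11 differences were above 0, with a median of 0.90. Over all named genes 1.51% rose and the median was 0. Of their 13355 differences 5523 (41.4%) were above 0, 5157 were below and the rest were at or near 0. ATG8 proteins are small ubiquitin-like proteins that coat the forming autophagosome. ATG8D read 8.96, 8.89 and 9.15 at 6 h and 10.69, 10.07 and 10.17 at 9 h, a difference of 1.31 ± 0.19 (adjusted p = 0.0329). ATG8H read 9.28, 9.35 and 9.73 at 6 h and 10.79, 10.47 and 10.35 at 9 h, a difference of 1.08 ± 0.18 (adjusted p = 0.039). In both the groups did not overlap. ATG8B differed by 1.11, with 10.35 in DEX 9 h replicate 1 against 8.51 and 8.82 in the other arrays of that time, and did not pass the test (adjusted p = 0.3).

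Genes listed under amino acid breakdown and starvation were looked at after the values had been seen. MCCA, a subunit of the methylcrotonyl-CoA carboxylase that acts in leucine breakdown, read 9.92, 10.23 and 10.46 at 6 h and 12.93, 12.07 and 12.17 at 9 h, a difference of 2.19 ± 0.29 (adjusted p = 0.0286). ETFQO, which passes electrons from this breakdown to the respiratory chain, differed by 1.23 ± 0.23 (adjusted p = 0.049). The other carboxylase subunit, MCCB, gave overlapping groups: it read 8.58, 8.51 and 8.64 at 6 h and 9.04, 8.54 and 8.61 at 9 h (adjusted p = 0.618). In this list 2 of 6 genes rose and none fell, against 1.51% and 1.18% of all named genes. Since the list was chosen with these values seen, its count is a description only.

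The glutathione transferase gene GSTU18, of a family that joins glutathione to other molecules, read 3.24, 3.72 and 3.63 at 6 h and 6.37, 6.13 and 6.22 at 9 h. All arrays of 9 h were far above those of 6 h, by 2.71 ± 0.17 (adjusted p = 0.0143), and the call held in 4 of the 6 fits with an array left out. The other 13 measured genes of this family were not called, and the median of the family was 0. Among 51 glycosyltransferase genes of the UGT family, which attach sugars to small molecules, 3 rose and none fell, with a median of 0.00. Over all named genes 1.51% rose and 1.18% fell.

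UGT72E2, which glucosylates monolignols, differed by 1.23 ± 0.22 (adjusted p = 0.0452) and read 8.00, 7.74 and 7.21 at 9 h, below the uninduced mean at 9 h of 9.07 ± 0.32 (SD, n = 3). UGT71C1 differed by 1.30 and UGT76B1 by 1.01. TRM20 and TRM19, members of a family linked to the arrangement of microtubules and chosen after their values were seen, differed by 2.02 ± 0.25 and 1.19 ± 0.16. NRPC2, a subunit of RNA polymerase III chosen in the same way, read 9.07, 8.82 and 9.30 at 6 h and 10.68, 10.59 and 10.50 at 9 h, a difference of 1.53 ± 0.14 (adjusted p = 0.0214).

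**Figure D4:**
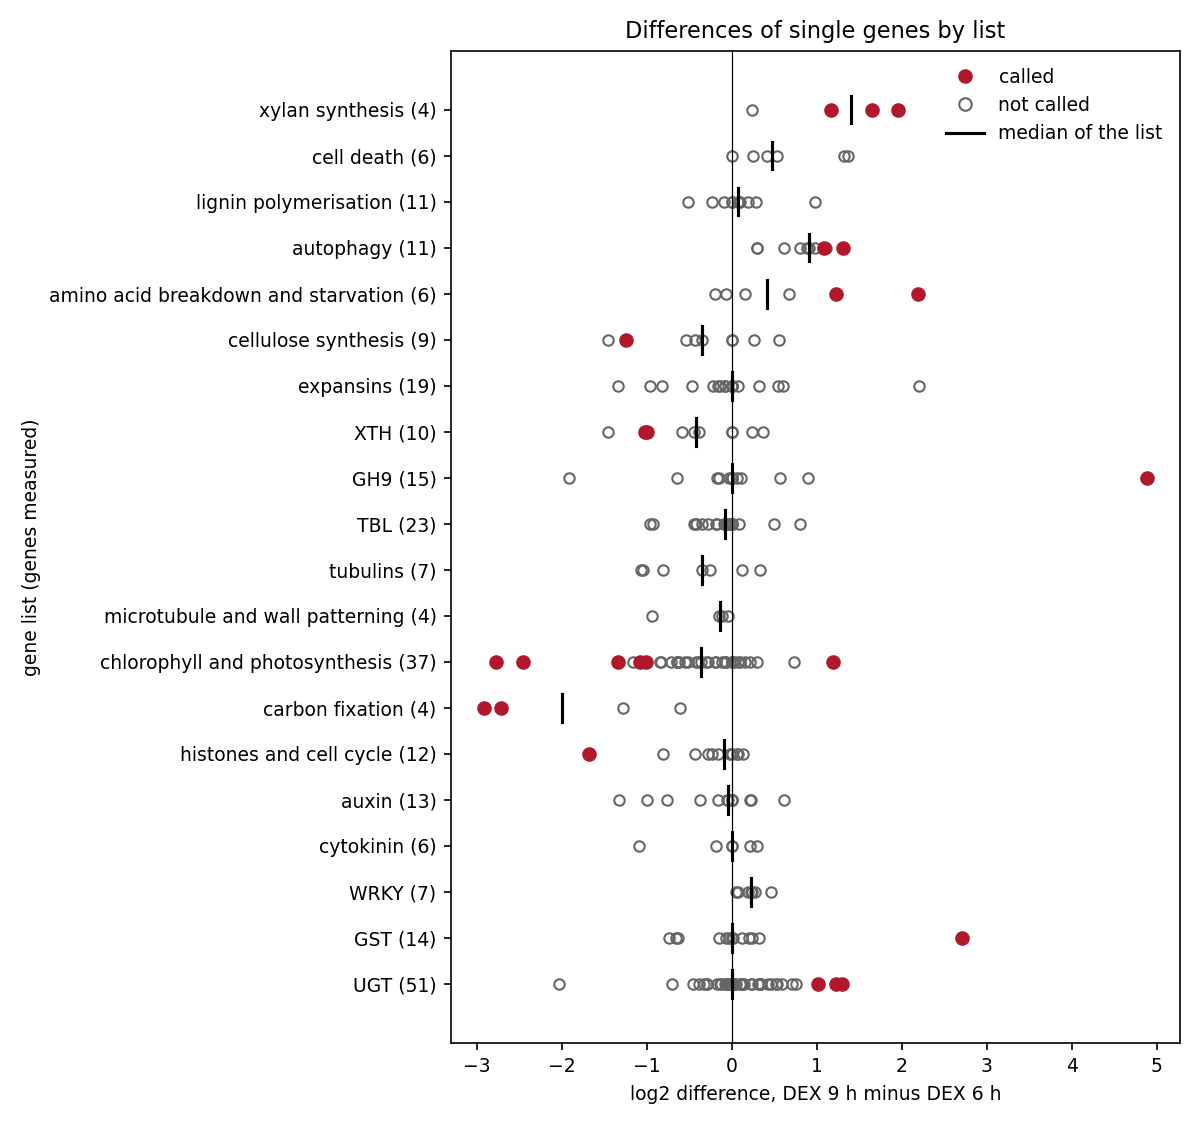
Log2 difference between DEX 9 h and DEX 6 h (horizontal axis) of each measured gene in 20 lists (vertical axis, with the number of genes measured), called (filled red) or not called (open), with the median of each list as a black bar. The xylan genes lie to the right of 0 with 3 of 4 called, carbon fixation lies to the left with 2 of 4 called, and most other lists centre near 0.

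Of 17 measured nuclear genes in the list of chlorophyll and photosynthesis 4 fell, none rose and 13 were not called, with a median of -0.62. Over all named genes 1.18% fell, 1.51% rose and the median was 0. PORB, which makes chlorophyllide in the light and gathers in dark-grown seedlings, read 9.03, 8.58 and 8.21 at 6 h and 5.98, 6.22 and 6.26 at 9 h. The groups were apart by -2.45 ± 0.23 (adjusted p = 0.0215). PSBY, a small subunit of photosystem II, read 6.60, 6.52 and 6.59 at 6 h and 3.50, 4.23 and 3.64 at 9 h, a difference of -2.78 ± 0.22 (adjusted p = 0.0192).

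TROL, which anchors an electron transfer enzyme to the thylakoid, read 6.55, 6.85 and 6.75 at 6 h and 3.21, 3.70 and 3.08 at 9 h, a difference of -3.39 ± 0.21 (adjusted p = 0.0143). HCF101, which helps to build the iron-sulphur clusters of photosystem I, differed by -2.92 ± 0.40 (adjusted p = 0.031). TROL and HCF101 were named for their size and are not in the list. In PORB, PSBY, TROL and HCF101 the uninduced cultures at 9 h read higher still, with means from 7.78 ± 0.49 for HCF101 to 12.73 ± 0.26 for PORB (SD, n = 3). The list's other falls, besides PORB and PSBY, were LHCB4.1, an antenna protein of photosystem II, at -1.34 ± 0.23 (adjusted p = 0.0424), and PSAE-1, a subunit of photosystem I, at -1.08 ± 0.15 (adjusted p = 0.0321). The antenna genes LHCB4.2 and LHCB4.3 differed by -0.20 and 0.07 and were not called. LIL3:1 and LIL3:2, which take part in chlorophyll synthesis, and PSB27, an assembly factor of photosystem II, fell by 1.96, 1.76 and 1.33, and were added to the account after their values had been seen.

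Of 20 measured genes encoded in the plastid's own genome psbK fell, psaJ rose and 18 were not called, with a median of -0.29. Over all named genes 2.69% were called in either direction. The photosystem II gene psbK read 11.56, 11.65 and 11.49 at 6 h and 10.45, 10.76 and 10.44 at 9 h, a difference of -1.02 ± 0.11 (adjusted p = 0.0228). The photosystem I gene psaJ read 10.44, 10.79 and 10.43 at 6 h and 11.71, 11.83 and 11.68 at 9 h, a difference of 1.19 ± 0.12 (adjusted p = 0.0217). The 16 measured ribosomal protein genes, all encoded in the plastid except the nuclear AT1G77750, had no call and a median of 0.22.

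Carbon fixation, a list drawn up after the values were seen, had 4 measured genes, of which 2 fell and none rose. Of all named genes 1.18% fell. PRK, which makes the sugar phosphate that accepts carbon dioxide, read 6.81, 6.47 and 6.91 at 6 h and 2.87, 4.47 and 4.11 at 9 h, a difference of -2.92 ± 0.47 (adjusted p = 0.038). SBPASE, a phosphatase of the same cycle, read 8.10, 8.15 and 7.92 at 6 h and 4.40, 5.99 and 5.62 at 9 h, a difference of -2.72 ± 0.45 (adjusted p = 0.0396). In both, DEX 9 h replicate 1 was the lowest array. RCA, which activates the fixing enzyme, read 9.45, 10.85 and 10.75 at 9 h against 11.48 to 11.79 at 6 h and did not pass the test (adjusted p = 0.15). Since the list was chosen for these values, its count is a description only.

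**Figure D5:**
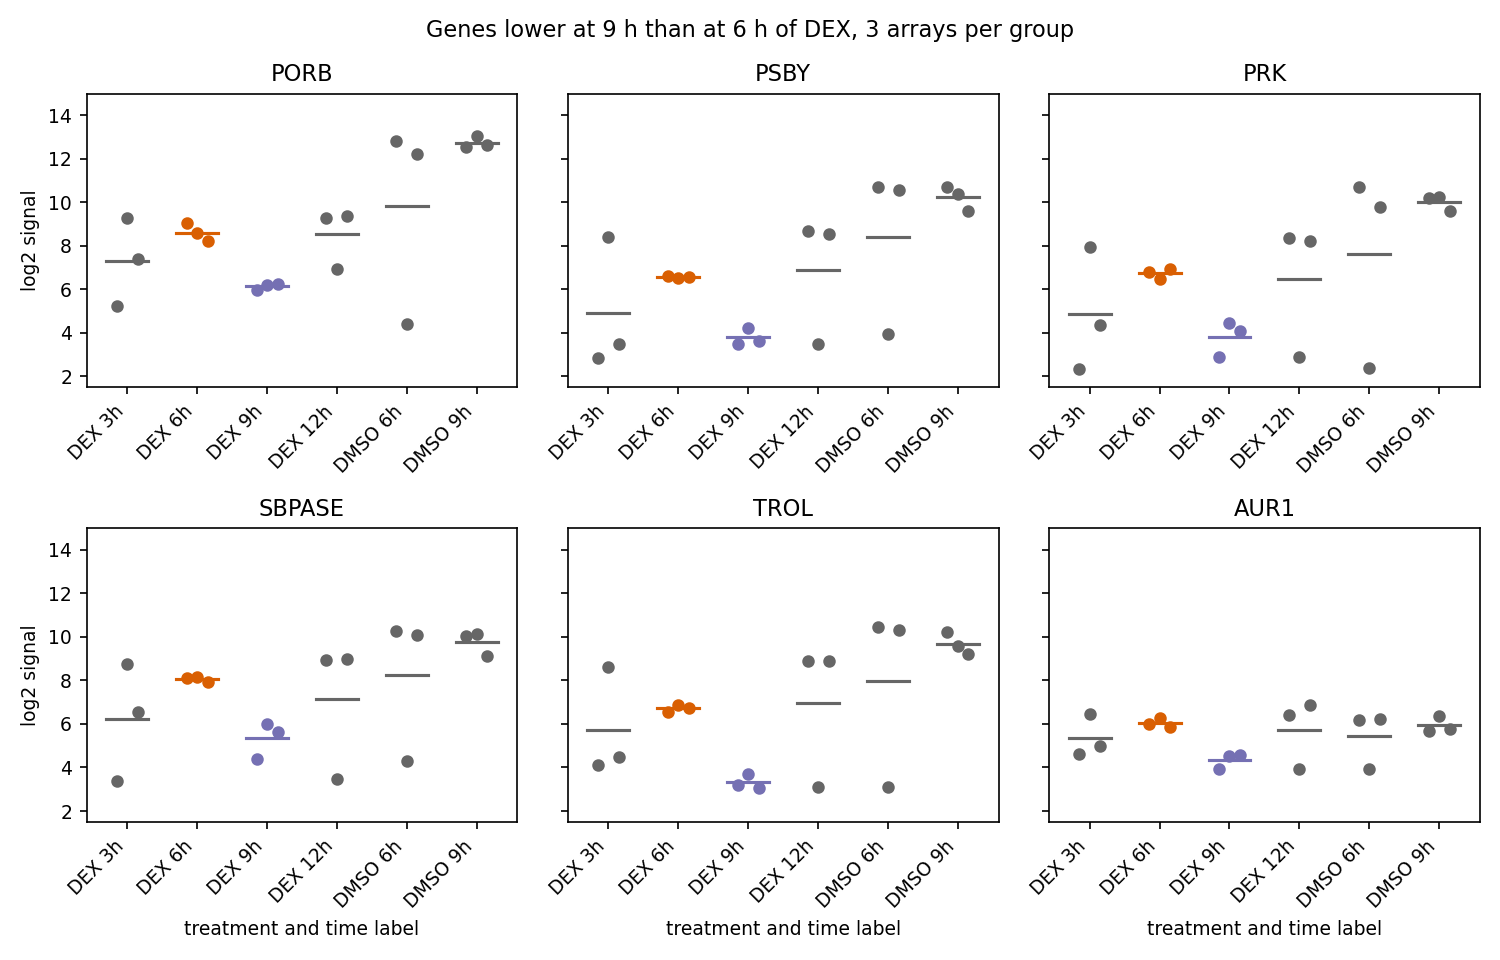
Log2 signal (vertical axis) of 6 genes that fell, in the VND7 line by treatment and time label (horizontal axis), with 1 point per array and a bar for the mean of 3 arrays. In each panel the 3 DEX 9 h arrays (purple) are below the 3 DEX 6 h arrays (orange), and 1 of the DMSO 6 h arrays, replicate 2, reads low among the uninduced arrays.

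The largest fall of all named genes was that of AT1G65490. It read 5.92, 6.13 and 6.51 at 6 h and 2.14, 3.61 and 2.35 at 9 h, a difference of -3.49 ± 0.46 (adjusted p = 0.0286). The uninduced arrays of 9 h were all at 2.14, so that its 6 h level stood above them. AT3G61930 likewise read 9.14, 8.72 and 7.96 at 6 h and 5.91, 6.08 and 5.08 at 9 h, against an uninduced mean of 4.49 ± 0.10 (SD, n = 3). The other falls named for their size were DRT100 (-2.89), a gene named for tolerance of DNA damage, MAP1C (-2.80), an aminopeptidase that removes the first methionine of proteins, AT5G43440 (-3.07), AT1G44830 (-3.03), AT4G17560 (-2.85), AT4G11610 (-2.70), AT4G27720 (-2.68) and AT2G42220 (-2.68), each value being the log2 difference.

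A few genes of the primary wall fell, where 1.18% of all named genes did. COB, which orients cellulose in expanding cells, read 10.71, 10.66 and 10.49 at 6 h and 9.12, 9.44 and 9.54 at 9 h, a difference of -1.25 ± 0.14 (adjusted p = 0.0228). It was the 1 call in a list of 9 genes with a median of -0.36, in which the other 8 were cellulose synthase-like (CSL) genes, a family that makes other wall glucans and mannans too, and no cellulose synthase was measured under its gene name. XTH18 and XTH19, of the enzymes that cut and rejoin xyloglucan, fell by 1.03 ± 0.10 and 1.00 ± 0.18 (adjusted p = 0.0216 and 0.0433), as 2 of 10 measured in that family with none rising.

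None of 19 expansins, which loosen the wall, was called. EXPA21 read 4.49, 2.87 and 4.89 at 6 h and 6.88, 5.60 and 6.37 at 9 h (adjusted p = 0.127), and EXPA4 differed by -1.34 (adjusted p = 0.0558). None of 7 tubulins was called either, with a median of -0.36, although TUB5 and TUB7 differed by -1.07 and -1.04 with groups apart (adjusted p = 0.0657 and 0.071). SPR1, a microtubule protein of straight growth named after its values were seen, read 12.70, 12.69 and 12.65 at 6 h and 11.20, 11.66 and 11.70 at 9 h, a difference of -1.16 ± 0.15 (adjusted p = 0.0282).

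Of 12 genes of histones and the cell cycle 1 fell, against 1.18% of all named genes. AUR1, an Aurora kinase of dividing cells, read 5.99, 6.26 and 5.86 at 6 h and 3.92, 4.54 and 4.59 at 9 h, a difference of -1.69 ± 0.24 (adjusted p = 0.0313). AUR2, its near relative, overlapped between the groups, with a difference of -0.28 (adjusted p = 0.6). The histone gene HTB2 had an adjusted p of 0.0445 in limma at a difference of -0.81 ± 0.15, under the minimum size. TSO1, linked to cell division and picked after its values were seen, fell by 1.78.

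No gene was called in the lists of 23 wall acetylation genes, 13 auxin response genes, 6 of cytokinin response, 6 of flavonoid synthesis, 7 of pectin, 7 WRKY factors, 22 cytochrome P450 genes, 4 of microtubules and wall patterning, 2 of heat shock and 1 NAC gene. Their medians ran from -0.64 (heat shock) to 0.22 (WRKY), and all 7 WRKY differences were above 0. Of 11 markers of other cell types 1 was called, against 2.69% of all named genes. The markers of dividing cells, AUR1 and AUR2, are not among these 11, and AUR1 was called too, as described. The phloem gene OPS read 2.50 in all but DEX 9 h replicate 2, with 2.72, and the guard cell gene FMA was at 2.14 in all 6 arrays. The root hair expansins EXPA7 and EXPA18 differed by 0.32 and -0.08. Of 4 cambium genes none was called, though CLE41, which encodes a peptide that holds back xylem formation, differed by -1.89 ± 0.37 with groups that did not overlap (adjusted p = 0.052). Of 3 mesophyll antenna genes LHCB4.1 fell, as described. The part of other cell types in these differences was not tested.

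How the genes stood at 6 h against the uninduced cultures was described with the DMSO 9 h mean. Of the 370 rises 167 (45.1%) were already at least 1 above it at 6 h, 159 (43.0%) were within 1 of it and 44 (11.9%) were at least 1 below it. Of the 328 falls 134 (40.9%) were at least 1 below it at 6 h, 111 (33.8%) within 1 and 83 (25.3%) at least 1 above. Over all probe sets 12.6% were above, 69.2% within and 18.2% below. GUT2 and IRX15 belong to the rises already above it, PORB and PRK to the falls already below. AT1G66810 was above it too but was not called, so it is in neither count. The DEX 6 h arrays enter both this grouping and the differences, so the shares are a description.

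The uninduced cultures gave no call over the same interval. Between DMSO 9 h and DMSO 6 h limma called 0 of 22746 probe sets (0%). At an unadjusted p under 0.05 there were 129 (0.567%), against 5700 (25.1%) for the induced arrays. The DMSO share was below the 5% that values without a difference give. Its fit held DMSO 6 h replicate 2, which stood toward the induced arrays, so both shares do not measure how far the cultures changed. The count of calls was also 0 without DMSO 6 h replicate 2, in a fit of 5 arrays. At this size the induced comparison fell to 18 calls in 1 case. A count of 0 therefore does not show that the uninduced cultures did not change. The difference between both changes, DEX minus DMSO, was tested over 12 arrays and called 122 probe sets (0.536%), 82 above 0 (0.361%) and 40 below (0.176%). Without DMSO 6 h replicate 2 this count was 303 (1.33%), and it was 24 to 120 when any other of the 12 arrays was left out. The lowest counts, 24, 27 and 40, came without DMSO 9 h replicates 2, 3 and 1, and it was 51 without DMSO 6 h replicate 3, 53 without DEX 6 h replicate 1 and 62 without DEX 6 h replicate 2.

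Of the 698 probe sets called in the induced arrays 106 were also called in this test with the same sign, and 255 without DMSO 6 h replicate 2. The same DEX arrays enter both tests. For IRX15 the difference of changes was 4.14 ± 2.10 and was not called (adjusted p = 0.497), where the array left out read 8.71, and it was called without that array. PORB and TROL were likewise called only without it. Per the labels the empty-vector line was sampled at 9, 12 and 24 h, so that it gave no value for this interval.

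The induced arrays of 3, 12, 24 and 30 h, which the comparison did not use, were set against a midpoint. It lay between the 6 h mean and the 9 h mean of each called probe set. The DEX 1 h and DEX 48 h arrays were not scored in this way. Of the 370 rises, 97.0% were on the 9 h side in DEX 3 h replicate 1, 92.2% in DEX 3 h replicate 3 and 97.6% in DEX 12 h replicate 2. The shares were 1.89% in DEX 3 h replicate 2, 3.51% in DEX 12 h replicate 1 and 2.97% in DEX 12 h replicate 3. IRX15 divided likewise: it read 11.05, 2.83 and 10.95 in the DEX 3 h arrays and 3.07, 11.26 and 2.78 in the DEX 12 h arrays. The low values lay far below its DEX 6 h mean of 9.10, so an array on the 6 h side need not be at the 6 h level.

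For the 328 falls the same arrays divided in the same way, with 84.1% to 97.9% on the 9 h side in the first 3 arrays and 3.05% to 5.18% in the other 3. At 30 h, 55.9% to 76.5% of the rises and 85.7% to 87.8% of the falls were on the 9 h side. At 24 h replicate 2 stood apart, with 12.2% of the rises and 16.8% of the falls, against 76.8% to 78.1% and 89.6% to 89.9% in replicates 1 and 3. The uninduced DMSO 9 h arrays had 14.1% to 19.5% of the rises and 26.8% to 29.0% of the falls on the 9 h side. DMSO 6 h replicate 2 had 35.1% and 79.6%. A low share therefore does not tell the 6 h level from a weaker induction. On this score the called genes also divide the arrays that carry one and the same label at 3 h, 12 h and 24 h. Which harvest each of those arrays holds was not tested.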

How the data were processed

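Expression was measured on Affymetrix ATH1 arrays. The deposited log2 values per probe set were made by the authors with GCRMA, per the submitters' processing notes. Its version and a genome build are not given in the sources used here. GCRMA shares its fit among arrays, so that a departing array can move others slightly. The values were used as deposited. The tests ran over 22746 probe sets, without the array's own controls. Of these, 13513 name 1 gene, 503 several and 8730 none here, and 13436 of the first matched the reference gene table. Each gene in a list was represented by its probe set of highest mean signal.

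limma 3.58.1 in R 4.3.3 fitted 1 mean per group with a prior following mean signal, to the 6 compared arrays (the 6 DMSO arrays for DMSO, 12 for the difference of changes). Only the compared arrays entered, because in earlier results arrays elsewhere in the series stood with the other treatment label and widened the spread. The median standard error was 0.14 in this fit and 0.24 in one to all 69 arrays. The p-values thus rest on the spread within the compared groups, not on that between same-label arrays of other times. The 3 arrays per group limit the precision. Arrays with the same replicate number did not deviate together (r = -0.0044, 0.0511 and 0.0099), so the numbers were not taken as pairs.

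Named genes are IRX15, GUT2, list members and, among called single-gene probe sets with non-overlapping groups, the 15 that rose most and the 15 that fell most; where a list had over 8 measured genes, up to 4 called in each direction, besides genes given as examples of differences that missed the thresholds. The comparison, members and lists were chosen with earlier results of these data known. The lists of amino acid breakdown and carbon fixation, narrower symbol patterns and the genes marked so in the text were chosen after seeing the values. Some genes may be listed under symbols the patterns missed. Sequences and coordinates are not analysed here.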

Additional observations from a re-analysis of the deposited data

Results flagged for a closer look

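The change from 6 h to 9 h differed between induced and uninduced cultures in 122 probe sets (limma, difference of both changes over 12 arrays). Among the genes named for their size, 7 were in that set. The DEX difference for which they were named also enters this test, so this count is a description and no separate support. The difference of changes was 7.36 for AT2G44250, 4.87 for GH9B17, 3.93 for AT1G20030, 3.58 for AT1G57670, 3.39 for AT1G28080, 3.32 for AT2G41445 and -3.06 for AT1G65490. In all 7 the DMSO 9 h mean was between 2.14 and 3.02. For AT1G28080 it had the smallest error of the 7, with an SE of 0.21 and an adjusted p of 4.2e-04. AT2G44250 read 5.52 in DMSO 6 h replicate 2 and 2.14 in the other uninduced arrays of 6 h and 9 h, and without that array its value was 6.23. No group here had enough arrays for a test of single outlying arrays.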

How the results depend on the processing

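Against 370 rises and 328 falls, centring each array on its median gave 575 and 589, a filter on low values 543 and 607 over 16181 probe sets, all 69 arrays in the fit 160 and 160, the 12 VND7 arrays of 6 h and 9 h 214 and 150, no minimum size 1036 and 853, and an adjusted p under 0.01 gave 5 and 2. Quantile normalization gave 376 and 367, and a constant prior 328 and 266. Of the 698 calls, 169 were shared with the fit to 69 arrays, and all 698 with the filter. Leaving out 1 array gave 12 to 271 rises and 5 to 271 falls. With the replicate number as a block there were 0 rises and 0 falls, and the difference of changes between DEX and DMSO gave 19. That count, 122 without the block, was 34 after centring, 51 with all 69 arrays in the fit and 24 to 303 with 1 array left out. DMSO 9 h against 6 h gave 0 calls after centring, quantile normalization and the filter, with all 69 arrays, the constant prior and the block, and with any 1 array left out. Of 81 called among 388 named or listed probe sets, the block ended 81 calls, the fit to all 69 arrays 67, that to 12 arrays 53, the constant prior 9, centring 4, quantile normalization 4, the filter 0 and leaving out 1 array 34 to 80 (80 without DEX 9 h replicate 3). A fit with fewer arrays or with the block has fewer degrees of freedom, and beyond that the cause of these shifts was not tested. Signals at the lowest value limit what can be measured of dim genes.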
